A study of Mus musculus with 12 samples.

Results

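The high-numbered Zfp genes are the mouse protein-coding genes whose symbol is Zfp followed by a number from 600 to 999. GENCODE lists 171 of them, and all 171 had a row in the count files. Of these, 142 reached 10 counts in at least 3 of the 12 libraries and were kept as members, among 20720 genes of any kind that reached that level and 54446 genes in the files. The other 29 genes fell below it, and 3 of those, Zfp935, Zfp616 and Zfp967, had no count in any library. The threshold passed through genes with very few reads. Zfp985 and Zfp820 were kept with 10 counts in exactly 3 libraries and totals of 79 and 97 counts over the 12 libraries, while Zfp964, Zfp960 and Zfp989 were dropped with totals of 84, 62 and 49 counts.

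RNA bound by YTHDF2 was recovered by immunoprecipitation and sequenced (RIP-seq) from CD11b+ myeloid cells sorted from MC38 tumors, a mouse colon adenocarcinoma line grown in WT mice that carried floxed Ythdf2 alleles (Ythdf2 f/f). Mice were left unirradiated (Ctrl) or received 1 local dose of 20 Gy (IR), and cells were taken 3 days after IR. Each condition had 3 pools of 5 mice, named in the study as technical replicates, and each pool gave an Input library, from a part of the lysate kept aside, and an IP library. Input and IP libraries were matched by the number in their titles, which do not say that the number marks a pool. The written methods give young adult mice of both sexes for the experiments in general, no IgG or Ythdf2-deficient IP was analysed here, and p-values measure the spread between these pools. The labels name poly(A) RNA, whereas the written methods describe total RNA for these libraries.

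Most members encode C2H2 zinc finger proteins, in which repeated fingers, each holding a zinc ion between a pair of cysteines and a pair of histidines, read DNA bases. Many carry an N-terminal KRAB domain, which recruits the co-repressor Trim28 and through it histone H3 lysine 9 methylation, and KRAB zinc finger genes are known for silencing retroviral and other repeated DNA. YTHDF2 is a cytoplasmic reader of N6-methyladenosine (m6A) that brings bound mRNAs to deadenylation and decay. m6A is laid down mostly at DRACH motifs such as GGACT, often in long internal exons and near stop codons.

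The finger array is what makes these genes alike at the level of sequence. It is also where reads of close copies can align at more than 1 place. The coding sequence of the first finger that matched the C2H2 pattern was taken for 6 members. Zfp992 is among them only for its likeness to Zfp991, and the others are named in the results. Each run covers 84 bases or 28 codons on the coding strand of mm10, 5′ to 3′, with the codons of the 2 cysteines and the 2 histidines in capitals. Zfp629 lies at chr7:127612102-127612185 on the minus strand, Zfp871 at chr17:32775534-32775617 on the minus strand, Zfp943 at chr17:21992478-21992561 on the plus strand, Zfp991 at chr4:147178891-147178974, Zfp992 at chr4:146466547-146466630 and Zfp993 at chr4:146657944-146658027, the last 3 on the plus strand.
Zfp629: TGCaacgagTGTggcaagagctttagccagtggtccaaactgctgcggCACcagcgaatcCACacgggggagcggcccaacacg
Zfp871: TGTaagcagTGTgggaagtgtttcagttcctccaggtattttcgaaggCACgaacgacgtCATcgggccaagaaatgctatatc
Zfp943: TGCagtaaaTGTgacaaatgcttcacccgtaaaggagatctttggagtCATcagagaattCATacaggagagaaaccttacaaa
Zfp991: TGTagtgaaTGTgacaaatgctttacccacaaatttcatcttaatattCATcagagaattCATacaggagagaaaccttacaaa
Zfp992: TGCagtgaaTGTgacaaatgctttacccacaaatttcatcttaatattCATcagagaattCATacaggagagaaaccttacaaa
Zfp993: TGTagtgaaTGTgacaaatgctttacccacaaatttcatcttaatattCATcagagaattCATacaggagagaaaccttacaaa
The runs of Zfp991 and Zfp993 differed at 0 bases, and Zfp992 differed from Zfp991 by T3C, counted from 1 at the 5′ end. Zfp629 and Zfp871 differed from the run of Zfp991 at 36 and 44 bases, and Zfp943 at 13.

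Such copies set a limit on the counts. Of the members' 50-base exon words, a median of 1.8% also occurred in exons of another gene, but 39 members shared 10% or more and 16 shared over 30%. Zfp993 shared 86.8% of its words, mostly with Zfp991, and Zfp991 shared 82.2%, mostly with the pseudogene Znf41-ps. Zfp971 shared 51.1%, mostly with Gm14327, and Zfp984 shared 54.5%, mostly with Gm13212. Reads that aligned at more than 1 place, 1570472 to 2935594 per library, were listed apart from the gene counts. Counts of these members can therefore miss reads of shared stretches. Exons of 43 members overlapped exons of another gene, 17 of them on the same strand, and the strand setting of the counting is not given in the sources used here.

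The libraries held 27852948 to 42382532 counts on genes. Reads that fell on no annotated exon made up 26.9% to 27.0% of the assigned and unassigned reads in Ctrl Input, 24.6% to 24.8% in IR Input, 41.8% to 42.7% in Ctrl IP and 49.4% to 54.1% in IR IP. The cell type was checked by marker genes. The 10 myeloid markers, including Itgam, Csf1r and Lyz2, summed to 9061 to 9922 in Ctrl Input and 12270 to 13056 CPM in IR Input. CPM is the count scaled to a common library size (counts per 1e6, with TMM factors). The higher sum in IR was not shared by all 10. S100a8 averaged 2100 CPM in Ctrl Input and 2902 CPM in IR Input, S100a9 3516 and 4901, and Itgam 943 and 1717. With an edgeR adjusted p below 0.05, 5 of the 10 were higher in IR Input and 3 lower. The lower ones were Csf1r (-0.12 on the log2 scale), Fcgr1 and Adgre1, while Lyz2 was at -0.01 and not called. In the Input libraries 7 T cell markers summed to 0.663 to 1.92 CPM, 5 NK cell markers to 0.0857 to 0.617, 5 B cell markers to 22.1 to 35.3, 5 fibroblast markers to 6.03 to 12.5, 5 endothelial markers to 72.8 to 98.5 and 6 epithelial markers to 90.8 to 127.3, the last mostly Cdh1, while Krt8 averaged 0.00855 and 0 CPM and Cldn4 0 and 0.00921 CPM in Ctrl and IR Input.

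The members were expressed at low levels and had the exon structure of the family. Their median Input level, averaged over the 6 Input libraries, was 8.33 CPM against 18.4 CPM for the other nuclear protein-coding genes kept, and 16 members lay under 1 CPM. The merged exons spanned a median of 4311 bases, close to 4373.5 for the other coding genes, but the longest exon was longer, 2780.5 against 1771 bases, and the longest transcript had fewer exons, 4 against 8. The longest exon of that transcript held a median of 85.8% of its bases. The translated coding sequences held a median of 10 C2H2 fingers and at most 33, in Zfp619. At least 1 finger was found in 135 members and none in 7, among them Zfp750, Zfp703, Zfp609 and Zfp839, and a KRAB A box pattern was found in 78 of the 142.

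The genes were also grouped on the chromosomes. Within 500 kb of 95 members lay another high-numbered Zfp gene, and chromosomes 7, 17, 8 and 4 held 33, 21, 15 and 12 members. The GGACT word occurred in the longest transcript of 122 of 142 members, or at a median of 0.711 per kb, against 93.1% of coding transcripts and 1.05 per kb for the other coding genes. A match marks only the letters in the annotated transcript, not a methylated site.

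Per kb of merged exons, 4 genes had the highest Input levels. Zfp710 was first at 25.2 CPM per kb, with 175, 180 and 175 CPM in the Ctrl Input libraries. Zfp706, a small protein with a single finger, and Zfp830, a single-exon gene for a factor of pre-mRNA splicing, followed at 22.6 and 22.5 CPM per kb, and Zfp991 at 19.9. These 4 levels were averages over the 6 Input libraries, and that of Zfp991 can miss reads of stretches it shares with its copies.

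In Ctrl cells most of the members stood higher in the YTHDF2 IP than in the Input. Added over the 142 members, the level was 2272 ± 5.88 CPM in Ctrl Input and 4470 ± 19.7 CPM in Ctrl IP (SD, n = 3). Of 134 members tested, 81 (60.4%) were higher in the IP and 18 (13.4%) lower by the quasi-likelihood test of edgeR, a call being a Benjamini-Hochberg adjusted p below 0.05 over all genes. Among all 17416 genes tested in that comparison 34.1% were higher and 34.6% lower. The members tested had a median log2 fold change, IP over Input, of 0.64, against 0.02 over all genes, and 105 of 134 lay above 0. The other 8 members, Zfp641, Zfp612, Zfp981, Zfp985, Zfp987, Zfp820, Zfp791 and Zfp853, did not reach the count filter of this comparison. Of the 81 and 18 called, 80 and 18 had the same direction in every numbered pair of IP and Input.

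Zfp629, a gene of 19 fingers with no KRAB box pattern at chr7:127607031-127615797, had the highest fold. Its level was 11.7, 13.1 and 12.3 CPM in Ctrl Input and 120, 112 and 111 CPM in Ctrl IP. The 2 sets were far apart, with a log2 fold change of 3.29 ± 0.07 (SE, adjusted p = 6.81e-17). It shared no 50-base word with another gene. Zfp937, a KRAB gene on chromosome 2, was read at 1.06, 1.33 and 0.909 CPM in Input and 7.04, 7.11 and 9.34 CPM in IP, a log2 fold change of 2.90 ± 0.25 (adjusted p = 9.46e-09). It shared 29.4% of its words, mostly with Zfp442. Zfp993 rose from 20.1, 21.5 and 18.8 CPM in Input to 115, 124 and 118 CPM in IP (2.64 ± 0.07, adjusted p = 8.61e-16). Of its words 86.8% also occur in another gene, mostly Zfp991. Zfp618, which encodes a partner of the methylcytosine-binding protein UHRF2, rose from 8.17, 6.29 and 7.27 CPM to 40.3, 35.4 and 38.3 CPM (2.47 ± 0.11, adjusted p = 2.13e-12). In all 4 genes every IP library was above every Input library.

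A minority stood lower in the IP. Zfp943, a KRAB gene with 11 fingers at chr17:21962552-22071168, had 8.23, 7.49 and 8.10 CPM in Ctrl Input and 1.22, 0.874 and 1.38 CPM in Ctrl IP, a log2 fold change of -2.71 ± 0.24 (adjusted p = 1.35e-08). Zfp971 was lower by a like amount, from 9.46, 11.1 and 9.38 CPM to 1.22, 1.87 and 2.20 CPM (-2.43 ± 0.22, adjusted p = 3.08e-08). Zfp706 fell from 114, 109 and 108 CPM in Input to 22.8, 24.1 and 22.9 CPM in IP (-2.17 ± 0.06, adjusted p = 5.27e-15). Zfp984 fell from 26.1, 28.2 and 26.5 CPM to 5.76, 5.74 and 5.73 CPM (-2.15 ± 0.12, adjusted p = 1.69e-11). The Input and IP libraries of these 4 genes did not overlap either, so genes of the same finger type, Zfp629 and Zfp943 among them, lay at opposite ends. Over called members with a mean of at least 50 counts, the log2 fold changes ran from 0.21 to 3.29 in 78 higher genes and from -2.71 to -0.29 in 16 lower ones.

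In IR cells the pattern was of the same kind with fewer calls. Pairs of IR IP libraries differed by a chi-square per gene of 17.2 to 21.5, and pairs of Ctrl IP libraries by 8.83 to 9.96. The part of this wider spread in the fewer calls was not tested. The members' summed level was 2377 ± 27.3 CPM in IR Input and 4074 ± 50.1 CPM in IR IP. Of 138 members tested, 65 (47.1%) were higher in the IP and 15 (10.9%) lower, against 32.1% and 30.5% of the 18650 genes tested. Zfp612, at 0, 0 and 1 counts in IR Input and 31, 54 and 13 in IR IP, passed the filter through its IP libraries alone. So did Zfp853, at 0, 3 and 7 counts in Input and 24, 15 and 29 in IP. For such genes the filter itself favors a higher IP, and Zfp612 is among the 65. Without the IR Input library of replicate 2 the number called lower was 8. The median log2 fold change was 0.51 over the members and 0.10 over all genes. Zfp641, Zfp985, Zfp820 and Zfp791 were not tested. The 134 members tested in both conditions can be compared one by one, since the 2 comparisons share no library. Of them 62 were called higher in the IP in both conditions, 18 in Ctrl with no call in IR, and 0 in IR with no call in Ctrl. Called lower were 12 in both conditions, 5 in Ctrl with no call in IR and 2 in IR with no call in Ctrl, while 33 were called in neither. The other 2, Zfp971 and Zfp692, were called in opposite directions. A call in 1 condition alone does not show that the conditions differ, which was tested separately.

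Zfp629 again had the highest fold in IR among genes of sufficient counts. It had 13.5, 12.6 and 14.6 CPM in IR Input and 91.9, 94.3 and 81.0 CPM in IR IP (2.76 ± 0.10, adjusted p = 1.33e-09). Zfp993 had 16.8, 24.4 and 18 CPM in Input and 104, 98.6 and 105 CPM in IP (2.43 ± 0.13, adjusted p = 2.73e-08). Zfp644, which works with the H3 lysine 9 methyltransferases G9a and GLP, rose from 52.5, 51.4 and 56.6 CPM to 237, 244 and 240 CPM (2.22 ± 0.06, adjusted p = 1.46e-10), and in Ctrl by 2.35 ± 0.06 on the log2 scale (adjusted p = 1.98e-16). Its exons overlap those of Gm28039 on the same strand. Zfp871, a KRAB gene whose longest exon spans 10513 bases, rose from 7.91, 8.56 and 7.20 CPM to 33.7, 32.6 and 39.0 CPM (2.21 ± 0.13, adjusted p = 9.75e-08).

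At the other end in IR were Zfp943 (-1.86 ± 0.45, adjusted p = 0.00413), Zfp706 (-1.79 ± 0.11, adjusted p = 8.14e-08), Zfp984 (-1.66 ± 0.20, adjusted p = 2.49e-05) and Zfp946 (-1.54 ± 0.38, adjusted p = 0.00467). The IP libraries of Zfp943 spread widely, at 3.02, 3.08 and 0.635 CPM, below the 8.25, 8.81 and 8.39 CPM of the IR Input. Zfp946, a KRAB gene, had 5.42, 4.64 and 4.28 CPM in IR Input and 1.14, 1.15 and 2.47 CPM in IR IP. Each of these 4 genes was also called lower in Ctrl, Zfp946 by edgeR but not by DESeq2 (adjusted p = 0.0663).

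**Figure D1:**
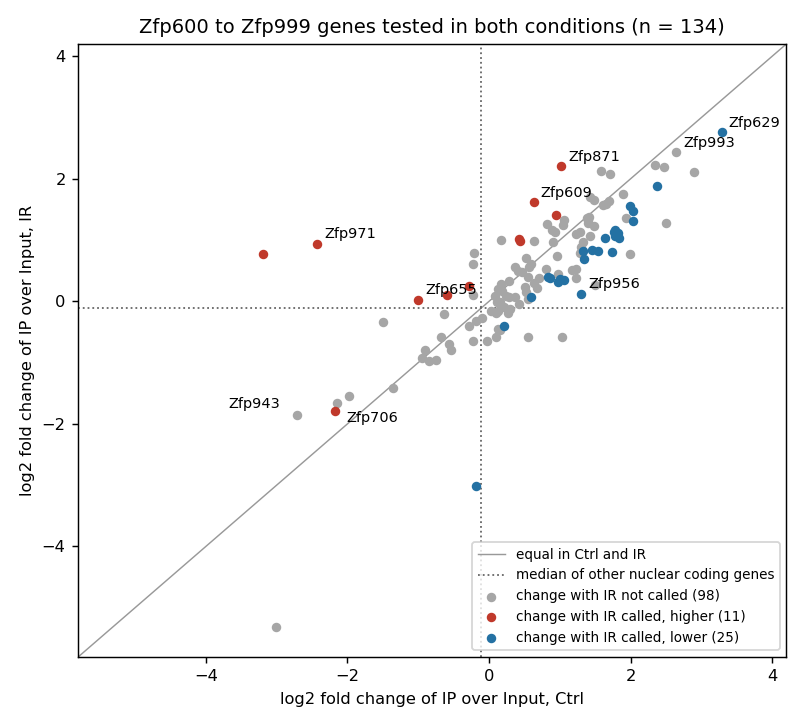
IP over Input as log2 fold change, Ctrl (x axis) and IR (y axis), for the 134 members tested in both, 1 point per gene. Dotted lines mark the medians of the other nuclear coding genes, -0.11 in Ctrl and -0.10 in IR, and red and blue points are the 11 and 25 genes whose fold was called higher or lower in IR than in Ctrl. Most points lie above and to the right of the dotted lines, and the lowest points are genes with few counts.

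**Figure D2:**
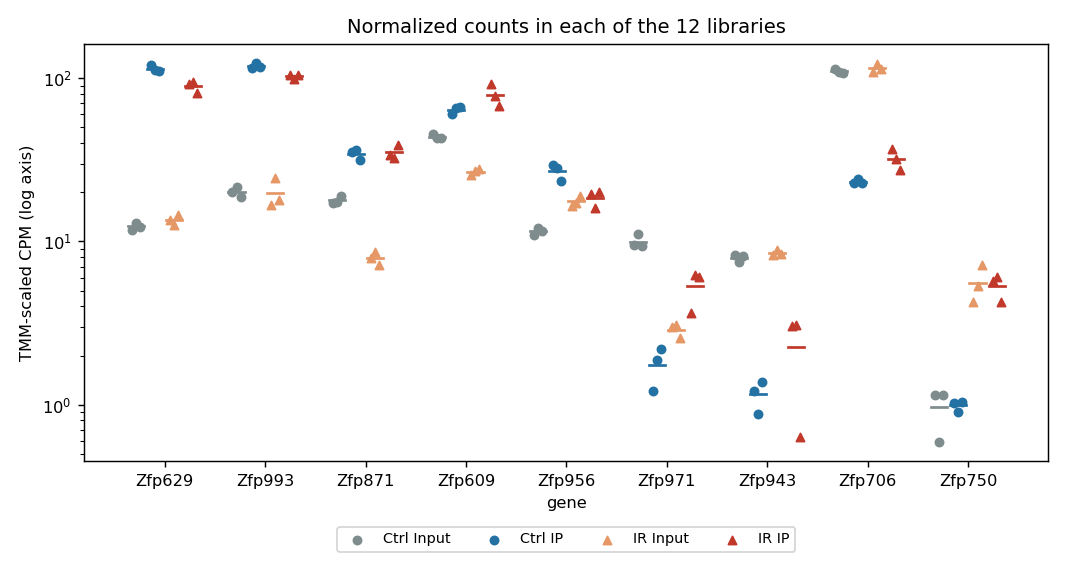
TMM-scaled CPM on a log axis in each of the 12 libraries for 9 members, with 1 point per library and a bar at the mean of each group of 3. IP points lie above Input points for Zfp629 and Zfp993 in both conditions and below them for Zfp943 and Zfp706, while for Zfp971 they lie below Input in Ctrl and above it in IR.

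Since Input level and length can both go with the fold of IP over Input, each member was set against other nuclear coding genes of like Input level and length. Those genes were placed in 20 bins, 5 of mean Input level by 4 of merged exon length, and the median of the bin was subtracted from the member. In Ctrl the median difference was 0.73 on the log2 scale, and 98 of 134 members lay above their bin's median. The members were called higher in 60.4% of cases and the like genes in 31.4%. In IR the median difference was 0.66, with 101 of 138 members above, and 47.1% of members were called higher against 26.7% of like genes. Called lower were 13.4% against 35.5% in Ctrl and 10.9% against 30.1% in IR. These are descriptions of the genes and carry no test.

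The excess differed along the Input level. Among members of the fourth bin of Input level, 35.1 to 76.4 CPM in Ctrl, 14 of 15 were called higher, against 33.1% of the other coding genes in the bin, and in IR 14 of 16 against 24.0%. In the third bin 20 of 27 were called higher in Ctrl and 19 of 35 in IR. In the lowest bin of IR, up to 1.72 CPM, the members were called higher less often than the other genes, 28.6% against 47.2%, and had the lower median log2 fold change, 0.27 against 1.61. In the lowest bin of Ctrl the medians were 0.59 and 0.58. Calls were more frequent among longer members, at 46.2% in the shortest and 76.0% in the longest of the 4 length bins in Ctrl, beside 23.6% and 42.7% of the other coding genes.

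**Figure D3:**
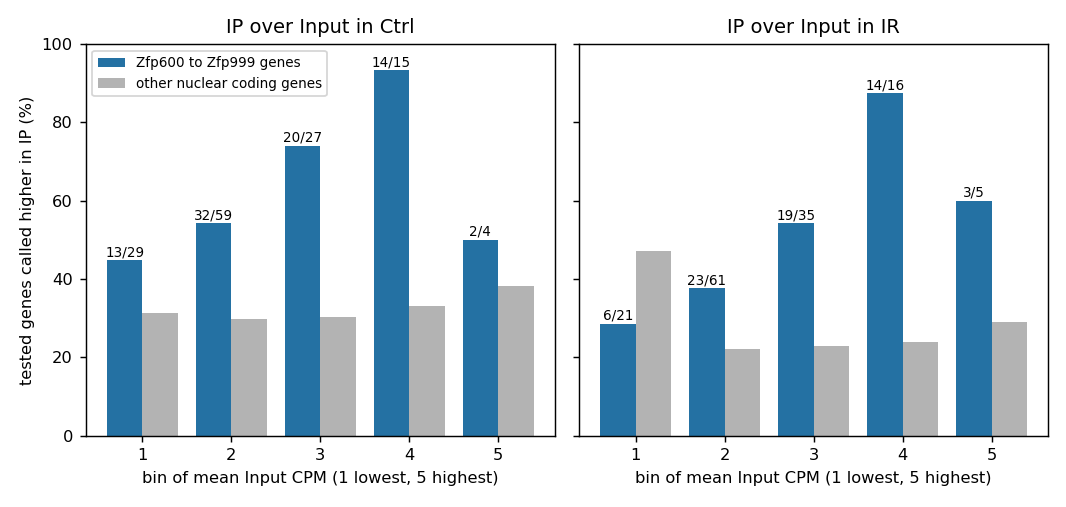
Share of tested genes called higher in the IP, in percent, in 5 bins of mean Input CPM from lowest (1) to highest (5), for members (blue, with called over tested above each bar) and other nuclear coding genes (grey), in Ctrl (left) and IR (right). The blue bar is the taller in every bin of Ctrl and in bins 2 to 5 of IR, and bin 5 holds only 4 and 5 members.

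Features of the genes that the choice of members did not use were set beside these folds. Of the KRAB genes 46 of 72 were called higher in Ctrl and 31 of 75 in IR, and of the others 35 of 62 and 34 of 63. Their medians were 0.75 and 0.61 in Ctrl and 0.49 and 0.61 in IR. By number of fingers the calls were 39 of 66 members above the median number and 42 of 68 at or below it in Ctrl. Genes in a cluster were called higher in 54 of 90 and 40 of 93 cases in Ctrl and IR, and those outside a cluster in 27 of 44 and 25 of 45. By chromosome, 22 of 33 members on chromosome 7, 11 of 20 on chromosome 17, 8 of 13 on chromosome 8 and 5 of 9 on chromosome 4 were higher in Ctrl.

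Splits by GGACT density and by length gave larger differences, to unlike degrees in the 2 conditions. In Ctrl 49 of 69 members with more GGACT per kb than the members' median were called higher and 4 lower, and 32 of 65 with fewer were called higher and 14 lower. In IR 39 of 71 with more GGACT were called higher and 5 lower, and 26 of 67 with fewer were called higher and 10 lower. In IR 42 of 71 members with longer merged exons were called higher, against 23 of 67 with shorter ones, with medians of 0.83 and 0.31. The length split was narrower in Ctrl, at 48 of 70 and 33 of 64, with medians of 0.77 and 0.55. Across members the rank correlation of merged exon length with the log2 fold change was 0.17 in Ctrl and 0.37 in IR, beside 0.21 and 0.29 across the other coding genes. That of GGACT per kb was 0.16 in each condition, beside 0.09 in Ctrl and 0.07 in IR across the other coding genes. These genes come from the same libraries and the values carry no p. Of the 43 members with an exon overlap, 31 were higher in Ctrl and 26 in IR, and of those without one, 50 of 91 and 39 of 95, with medians of 0.55 and 0.34. Of members sharing under 10% of their words, 61 of 98 and 47 of 100 were higher. The part of shared words and overlap in each fold was not tested.

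The change of IP over Input with IR was tested as an interaction over all 12 libraries. All 142 members were tested. The ratio was higher in IR in 11 members (7.75%) and lower in 25 (17.6%), against 6.28% and 13.9% of the 20720 genes tested. The other nuclear coding genes had shares of 7.22% and 17.9%, close to those of the members. Among coding genes of like Input level and length the shares were 6.40% and 9.66%. The median change was -0.15 over members and -0.08 over all genes, and 52 of 142 members lay above the median of coding genes of like Input level and length, from which the median difference was -0.17. These directions rest on the scaling. With library size alone in place of TMM, 18 members were higher and 4 lower, the median of all genes shifted by 0.31 on the log2 scale, and the members' median was 0.16. Without the IR Input library of replicate 1, 7 members were called higher. Per numbered pair of IP and Input libraries, the members' median log2 ratio of IP to Input stood at 0.58 ± 0.049 for Ctrl and 0.42 ± 0.12 for IR (SD, n = 3), while that of the other coding genes was -0.099 ± 0.014 and -0.15 ± 0.0091. These medians of the members ran from 0.528 to 0.623 in Ctrl and from 0.282 to 0.524 in IR, apart by a narrow margin. Those of the other coding genes did not overlap either, at -0.107 to -0.083 in Ctrl and -0.158 to -0.141 in IR.

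Zfp971 changed most among genes of sufficient counts. It had 2.98, 3.09 and 2.55 CPM in IR Input and 3.64, 6.21 and 6.08 CPM in IR IP. All IR IP libraries were thus above all IR Input libraries, where in Ctrl they were below, and the interaction was 3.39 ± 0.38 (adjusted p = 1.46e-06). The call of Zfp971 as higher in IR itself (0.94 ± 0.29, adjusted p = 0.0168) was lost without any 1 of the 3 IR Input libraries, with adjusted p of 0.0519 to 0.0791. Zfp871 was next (1.21 ± 0.16, adjusted p = 1.37e-05). Its IP level in Ctrl was 35.5, 36.5 and 31.6 CPM, within the range of the IR IP libraries or near it, and its Input level was 17.2, 17.6 and 19 CPM in Ctrl, above all 3 IR Input libraries. Zfp655, whose human counterpart binds the signaling protein Vav1, changed by 1.05 ± 0.21 (adjusted p = 0.000899). It had 21.3, 21 and 21 CPM in Ctrl Input and 11.8, 9.61 and 8.60 CPM in Ctrl IP, but 14.8, 16.7 and 18.6 CPM in IR Input and 14.6, 19.1 and 15.4 CPM in IR IP, so that Input and IP overlapped in IR. Zfp609, a partner of the cohesin loader Nipbl, changed by 1.01 ± 0.13 (adjusted p = 1.19e-05). Its level went from 45.3, 42.8 and 42.8 CPM in Ctrl Input to 25.5, 26.9 and 27.9 CPM in IR Input, and its IP level was 60.6, 65.3 and 66.3 CPM in Ctrl and 92.3, 77.8 and 67.6 CPM in IR.

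The lower values were smaller in size. Zfp956 had 11, 12 and 11.6 CPM in Ctrl Input, 29.5, 28.2 and 23.3 CPM in Ctrl IP, 16.4, 17.3 and 19.1 CPM in IR Input and 19.5, 16 and 20.1 CPM in IR IP. The IP and Input of this gene were apart in Ctrl and overlapped in IR, with an interaction of -1.15 ± 0.18 (adjusted p = 0.000108), and its exons overlap those of Zfp783. Zfp839, in which no C2H2 finger was found, had 37.3, 35.6 and 34.3 CPM in Ctrl Input and 109, 118 and 111 CPM in Ctrl IP. In IR it had 48.4, 50.3 and 55.5 CPM in Input and 89.3, 86.2 and 83 CPM in IP, an interaction of -0.91 ± 0.10 (adjusted p = 9.81e-07). The KRAB genes Zfp954 (-0.78 ± 0.15, adjusted p = 0.000763) and Zfp747 (-0.70 ± 0.18, adjusted p = 0.00887) followed. The call of Zfp747 was lost without the Ctrl IP library of replicate 3 (adjusted p = 0.0539) and with library size alone (adjusted p = 0.155). Zfp747 also shared 34.4% of its words, mostly with 9130019O22Rik. Zfp692, named after its values were seen, was slightly higher in the IP in Ctrl (0.21 ± 0.08, adjusted p = 0.0252) and lower in IR (-0.39 ± 0.12, adjusted p = 0.0153), with an interaction of -0.58 ± 0.14 (adjusted p = 0.00612).

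The members that changed up were longer than those that changed down. The median merged exon length was 7832 bases over the 11 and 3588 bases over the 25, and across members the rank correlation of length with the interaction was 0.30, beside 0.20 across the other coding genes. Of the 11 higher, 2 had a KRAB A box and 9 had none, and of the 25 lower, 13 had one and 12 had none. In clusters lay 5 of the 11 and 20 of the 25. Between IR and Ctrl, 10 of the 11 were called lower in Input and 3 higher in the IP. Of the 25, 11 were called higher in Input, while in the IP 1 was higher and 13 lower. Over all genes tested the shares higher and lower were 21.0% and 23.9% in Input and 6.12% and 9.85% in the IP. The ratio is built from these same libraries, so these counts are not independent of it.

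Input levels were compared between IR and Ctrl as the abundance of the transcripts, where fewer cells of a type and less RNA per cell cannot be told apart. Of 136 members tested, 22 (16.2%) rose and 27 (19.9%) fell, both below the 21.0% and 23.9% of all 16914 genes tested, and the median change was 0.04. In a fit of all 12 libraries together, 9 fell. Zfp750, a regulator of epidermal differentiation, rose most, from 1.14, 0.590 and 1.15 CPM in Ctrl Input to 4.24, 5.36 and 7.18 CPM in IR Input (2.46 ± 0.24, adjusted p = 3.61e-09). The groups did not overlap, which was required for a gene to be named here, and the gene rests on 23 to 47 counts per Ctrl library. Of the epithelial markers, Cdh1 stood at 119 CPM in Ctrl and 88.3 CPM in IR Input and Epcam at 4.63 and 5.92 CPM, and the summed level of the 6 genes was 119.3 to 127.3 CPM in Ctrl and 90.8 to 96.9 CPM in IR. The part of epithelial cells in the change of Zfp750 was not tested. The level of Zfp750 in the IP moved alike, from 1.02, 0.905 and 1.04 CPM to 5.71, 6.03 and 4.28 CPM, so that its ratio of IP to Input changed by only -0.11 ± 0.45 (adjusted p = 0.914).

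Zfp688, a KRAB gene with 2 fingers, rose from 14.5, 12.7 and 16.1 CPM to 29.9, 29.8 and 28 CPM in Input (0.94 ± 0.08, adjusted p = 4.52e-10). Zfp760 rose by 0.74 ± 0.17 (adjusted p = 0.000618) and Zfp958 by 0.66 ± 0.11 (adjusted p = 1.59e-05) on the log2 scale. In Zfp958 the IR Input libraries lay at 11.3, 12.2 and 11 CPM and the Ctrl Input libraries at 6.46, 7.26 and 6.90 CPM. Zfp971 fell most, by 1.88 ± 0.14 on the log2 scale (adjusted p = 1.62e-11), followed by Zfp871 (-1.26 ± 0.10, adjusted p = 3.87e-11), Zfp619 (-0.97 ± 0.22, adjusted p = 0.000763) and Zfp609 (-0.78 ± 0.06, adjusted p = 3.09e-11). The Ctrl and IR libraries were apart in each, but in the fit of all 12 libraries the call of Zfp619 was lost (adjusted p = 0.0745). The interaction above uses these same Input libraries, and the 2 sets of values are therefore not independent. Longer members had lower changes in Input, with a rank correlation of -0.40 across members and -0.25 across the other coding genes. Of the members above the median length 7 rose and 22 fell, and of those at or below it 15 rose and 5 fell.

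**Figure D4:**
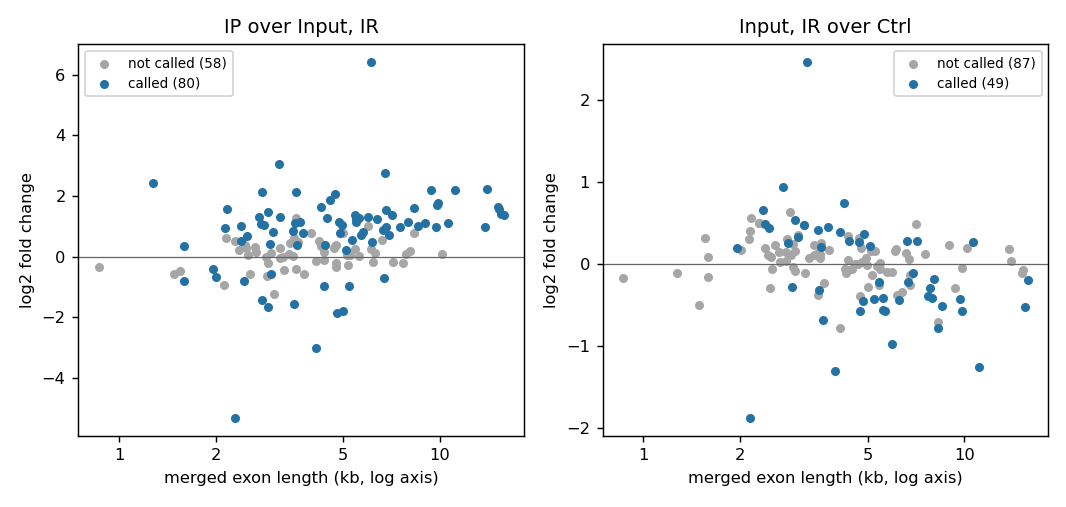
Merged exon length in kb (log axis) of each member against its log2 fold changes, for IR IP against IR Input (left) and for IR Input against Ctrl Input (right), with called genes in blue and others in grey. Points drift upward with length on the left and downward on the right, and the rank correlations are 0.37 and -0.40.

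The IP libraries were also compared between conditions, with fewer calls than in Input but changes of a like width, the middle 50% of the members lying from -0.31 to 0.19 on the log2 scale in the IP and from -0.24 to 0.24 in Input. Of 136 members tested, 5 (3.68%) were higher in IR and 16 (11.8%) lower, against 6.12% and 9.85% of the 19255 genes tested. Among coding genes of like Input level and length 5.28% were higher and 8.47% lower. The members' counts turned with the scaling to 16 higher and 4 lower with library size alone, when the median of all genes shifted by 0.20. Without the Ctrl IP library of replicate 1 or of replicate 3, 2 were higher and 10 lower, and without that of replicate 2, 2 were higher. Without the IR IP library of replicate 2, 10 were lower. The 5 higher were Zfp750 (2.44 ± 0.39, adjusted p = 0.000402), Zfp971 (1.6 ± 0.39, adjusted p = 0.00969), Zfp655 (0.72 ± 0.20, adjusted p = 0.0183), Zfp706 (0.47 ± 0.14, adjusted p = 0.0286) and Zfp688 (0.34 ± 0.10, adjusted p = 0.0271). Leaving out single libraries ended the call of Zfp971 in 1 of 6 cases (Ctrl IP replicate 1, adjusted p = 0.0521), of Zfp655 in 3, of Zfp706 in 4 and of Zfp688 in 4, and that of Zfp750 in none. The lowest were Zfp976 (-1.38 ± 0.32, adjusted p = 0.00705), Zfp934 (-0.70 ± 0.13, adjusted p = 0.00118), Zfp956 (-0.54 ± 0.15, adjusted p = 0.0248) and Zfp639 (-0.49 ± 0.10, adjusted p = 0.00195). The call of Zfp956 ended in 3 of 6 such cases and with library size alone (adjusted p = 0.153). Zfp976 shared 20.4% of its words, mostly with Zfp975, and Zfp934 shared 30.9%, mostly with Zfp808. Zfp976 had 7.84, 9.83 and 9.16 CPM in Ctrl IP and 4.59, 3.74 and 1.87 CPM in IR IP. Zfp639 had 69.6, 82.8 and 71.9 CPM in Ctrl IP and 54.7, 51.9 and 51.8 CPM in IR IP. Neither gene showed an overlap, as the rule for naming required.

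Of 10 members with a known role, 6 (60%) were higher in the IP in each condition and 1 (10%), Zfp706, was lower in both. Over all genes 34.1% were higher and 34.6% lower in Ctrl, and 32.1% and 30.5% in IR. The share of all members called higher was 60.4% in Ctrl and 47.1% in IR, so these 10 are not set apart from the other members. Zfp809, which recognizes the primer binding site of murine leukemia viruses and recruits Trim28, had 20.0, 21.2 and 20.9 CPM in Ctrl Input and 34.9, 33.9 and 36.3 CPM in Ctrl IP (0.83 ± 0.08, adjusted p = 1.07e-07). In IR it had 25.8, 23.9 and 23.2 CPM and 28.9, 34.7 and 29.4 CPM (0.41 ± 0.11, adjusted p = 0.00973), a call lost without the IR Input library of replicate 3 (adjusted p = 0.0568). Its groups of 3 did not overlap in either condition. Zfp638, known for silencing unintegrated retroviral DNA, rose in the IP by 1.39 ± 0.05 in Ctrl (adjusted p = 7.29e-14) and 1.36 ± 0.07 in IR (adjusted p = 2.07e-08), all on the log2 scale. Zfp932, which with its near copy Gm15446 binds endogenous retroviruses, gave 0.12 ± 0.18 in Ctrl (adjusted p = 0.553) and -0.45 ± 0.19 in IR (adjusted p = 0.0589), and it shared 37.0% of its words, mostly with that copy.

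Among the others, Zfp668, whose human counterpart takes part in DNA repair, was higher in the IP by 1.99 ± 0.08 in Ctrl (adjusted p = 6.57e-13) and 1.55 ± 0.12 in IR (adjusted p = 9.34e-07), but its exons overlap those of Zfp646 on the opposite strand. Zfp827, which recruits the NuRD complex to telomeres, gave 1.82 ± 0.12 (adjusted p = 2.42e-10) and 1.11 ± 0.15 (adjusted p = 8.29e-05). Zfp687 gave 1.39 ± 0.07 (adjusted p = 5.50e-12) and 1.32 ± 0.08 (adjusted p = 6.22e-08). Zfp830 gave 1.0 ± 0.08 (adjusted p = 3.15e-09) in Ctrl and 0.37 ± 0.11 (adjusted p = 0.0121) in IR, where the call was lost without the IR Input library of replicate 2 (adjusted p = 0.0779). Zfp622, a factor of large ribosomal subunit maturation, and Zfp703, a transcriptional co-repressor, were not called in either condition, at 0.13 ± 0.06 (adjusted p = 0.072) and 0.09 ± 0.07 (adjusted p = 0.27) in Ctrl.

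The change with IR of Zfp809 (-0.41 ± 0.14, adjusted p = 0.0484) and Zfp668 (-0.42 ± 0.14, adjusted p = 0.0468) passed the threshold narrowly. Either call was lost without any 1 of 11 of the 12 libraries, and with the pool number as a block (adjusted p = 0.0907 and 0.0993). Those of Zfp827 (-0.69 ± 0.19, adjusted p = 0.0145) and Zfp830 (-0.61 ± 0.14, adjusted p = 0.00247) held in the block fit, but the first was lost without the Ctrl IP library of replicate 3 (adjusted p = 0.0835) and both were lost with library size alone (adjusted p = 0.195 and 0.13). Zfp706 changed by 0.40 ± 0.12 (adjusted p = 0.0238), a call that 3 of 12 left-out libraries ended. In Input only Zfp622 rose (0.28 ± 0.04, adjusted p = 7.86e-06) and only Zfp638 fell (-0.20 ± 0.04, adjusted p = 0.000577) among these 10, and in the fit of all 12 libraries the call of Zfp638 was lost (adjusted p = 0.201).

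The machinery through which KRAB proteins act was read from a list of 18 co-repressor and heterochromatin genes. In Ctrl 4 (22.2%) were higher in the IP and 10 (55.6%) lower, with a median log2 fold change of -0.47, beside 34.1% and 34.6% of all genes. In IR 4 (22.2%) were higher and 12 (66.7%) lower, with a median of -0.43, beside 32.1% and 30.5%. In Ctrl Trim28, the KRAB co-repressor, was lower in the IP (-0.83 ± 0.07, adjusted p = 8.17e-09), as was Morc3 (-2.32 ± 0.06, adjusted p = 9.58e-16). Mphosph8, a chromodomain protein of the HUSH silencing complex, was higher in Ctrl (2.02 ± 0.05, adjusted p = 5.24e-16), and Atf7ip, a partner of the methyltransferase Setdb1, also (0.99 ± 0.05, adjusted p = 3.59e-12). The log2 fold changes in IR were -0.58 for Trim28, -1.83 for Morc3, 0.83 for Mphosph8 and 1.06 for Atf7ip. By the interaction Mphosph8 changed by -1.17 ± 0.07 (adjusted p = 7.47e-10) and Morc3 by 0.51 ± 0.09 (adjusted p = 0.000437). In Input after IR 10 of the 18 (55.6%) fell and 2 (11.1%) rose, beside 23.9% and 21.0% of all genes, Trim28 being at 85.7 ± 1.04 CPM in Ctrl and 61.6 ± 1.99 CPM in IR (SD, n = 3). The change of IP over Input with IR was called higher in 6 and lower in 6 of them (33.3% each) under TMM scaling, beside 6.28% and 13.9% of all genes, and the IP level in IR over Ctrl higher in 2 (11.1%) and lower in 7 (38.9%), beside 6.12% and 9.85%.

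The Zfp genes numbered below 600 were the genes most alike outside the group. Of 176 tested, 98 (55.7%) were higher in the IP in Ctrl and 24 (13.6%) lower, with a median of 0.57, and in IR 74 (42.0%) and 19 (10.8%), with a median of 0.47. Their Input level had a median of 9.65 CPM. The change with IR was called higher in 10 and lower in 21 of 179 under TMM scaling. No test of the members against these genes was made, and nothing here marks the high numbers as set apart within the Zfp symbols.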

How the data were processed

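RIP-seq counts of 12 libraries were used, from 2 conditions (Ctrl and IR), 2 fractions (Input and YTHDF2 IP) and 3 pools each, grouped by their titles. The authors used Trimmomatic 0.39 for trimming, HISAT for alignment (mm10, GENCODE annotation) and HTSeq for counting, and deposited the unnormalized counts of each gene. Reads on no exon are listed apart and were left out here. The strand option and the HTSeq version are not given in the sources used here. The antibody is named differently in the labels and in the methods.

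Gene symbols, exons and coding sequences came from GENCODE M21 (mm10), in which 99.9% of gene identifiers matched, so a member's exons can differ slightly from those counted. Each comparison used edgeR 4.0.16 (R 4.3.3) with quasi-likelihood tests, TMM scaling, a filter of 10 or more counts in 3 or more of its libraries, Benjamini-Hochberg adjustment over all genes tested and a threshold of 0.05. SE is the absolute log2 fold change over sqrt(F). DESeq2 1.42.0 was an alternative. The procedure was tested on simulated counts with 200 changed genes. For IP over Input, changes of 2-fold were recovered in 98.6% of cases in Ctrl and 72.6% in IR.

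C2H2 fingers and KRAB A boxes (first 200 residues) were searched by pattern in the longest translated coding sequence of GENCODE, as no protein table was used. Genes named are the 4 highest and 4 lowest called members per comparison whose numbered pairs or libraries all moved one way and whose mean count was 50 or more, the 4 highest in Input per kb, 10 members of known role and those next to the threshold. The members and lists were chosen with earlier results of these data known. Library pairs of a group differed beyond counting noise, with a chi-square per gene of at least 3.59, and none was merged.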

Additional observations from a re-analysis of the deposited data

Results flagged for a closer look

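The ratio of IP to Input differed between IR and Ctrl, by the interaction test over all 12 libraries, in 11 members where it was higher (7.75%) and 25 where it was lower (17.6%), beside 6.28% and 13.9% of all genes tested. The shares of the other nuclear coding genes were close to the members', at 7.22% and 17.9%. Among the named members the interaction on the log2 scale was 3.39 for Zfp971, 1.21 for Zfp871, 1.05 for Zfp655, 1.01 for Zfp609 and 0.40 for Zfp706. It was -1.15 for Zfp956, -0.91 for Zfp839, -0.78 for Zfp954, -0.70 for Zfp747, -0.69 for Zfp688, Zfp934 and Zfp827, -0.61 for Zfp830, -0.59 for Zfp639, -0.53 for Zfp991, -0.50 for Zfp629, -0.42 for Zfp668 and -0.41 for Zfp809. With library size alone in place of TMM, 10 of these 18 calls were lost and 8 kept, none with a change of sign. The part of exon length, shared words and the larger share of reads outside exons in IR IP (49.4% to 54.1%, against 41.8% to 42.7% in Ctrl IP) was not tested.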

How the results depend on the processing

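In 2367 of 2520 repeats over alternatives, the named members kept their direction and their side of the threshold in each comparison; 96 calls were lost, 57 gained and 0 reversed. With library size alone, the members changed with IR were 18 higher and 4 lower and their median reversed to 0.16, and in the IP in IR over Ctrl they were 16 higher and 4 lower and the median reversed to 0.14. The medians of IP over Input were then 0.45 in Ctrl and 0.65 in IR. With no filter on low counts the medians were 0.53 in Ctrl, 0.38 in IR and -0.094 for the IP libraries, while those of all genes were 0.49, 0.90 and 0.23. One fit of all 12 libraries gave a median of 0.57 in Ctrl, 9 members lower and a median of 0.11 in Input, and 9 higher in the IP libraries. Nuclear coding genes alone gave medians of 0.74 in Ctrl, 0.64 in IR and -0.038 for the IP libraries. Bins of longest transcript length gave a median difference of 0.52 in IR. Members with no exon overlap numbered 50 higher in Ctrl (median 0.55), 39 in IR (median 0.34), 5 higher for the change with IR, 15 lower in Input (median 0.10) and 10 lower in the IP libraries (median -0.078), and with under 10% shared words 10 were lower there; fewer members enter these sets.

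Leaving out 1 library gave 76 to 84 members higher and 13 to 17 lower in Ctrl (median 0.64 to 0.77), 54 to 70 and 8 to 16 in IR (median 0.48 to 0.58), 7 to 16 and 17 to 30 for the change with IR (median -0.22 to -0.090), 18 to 22 and 23 to 26 in Input (median 0.013 to 0.037), and 2 to 6 and 10 to 17 in the IP libraries (median -0.066 to -0.044). The cause was not tested. No single library ended 90 of 108 calls of named members. Same-numbered IP and Input libraries did not deviate together (correlations of -0.015 to 0.019), so the block was not used in the fits reported, and values per numbered pair rest on the titles alone. The replicate block gave 80 higher and 19 lower in Ctrl, 61 and 16 in IR, 10 and 23 for the change, 25 and 26 in Input and 5 and 16 in the IP libraries. Depth limits the 16 members under 1 CPM.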
